A study of Mus musculus with 4 samples.

Results

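Genes that write, maintain, remove or protect DNA methylation were followed as a set of 10, chosen by name for their place in the pathway. All 10 were found among the 37310 genes of the deposited count table. They are the *de novo* methyltransferase genes *Dnmt3a* and *Dnmt3b* with their cofactor gene *Dnmt3l*, the maintenance genes *Dnmt1* and *Uhrf1*, the oxidase genes *Tet1*, *Tet2* and *Tet3*, the glycosylase gene *Tdg*, and *Zfp57*, which encodes a zinc finger protein that protects imprints. The RNA came from HATX cells, a mouse embryonic stem cell (mESC) line that has a mixed genomic background and carries an *Xist* transgene under control of doxycycline. WT cells (2 libraries) were compared with *Spen* KO clone 2 (2 libraries), in which the study describes a deletion of *Spen*, the gene of an RNA-binding repressor protein that *Xist* requires for silencing. Both groups were grown in serum with LIF on gelatin, the labels state no treatment, and the KO group is 1 clone. The labels do not say whether the libraries of a group came from separate cultures, so p-values measure the spread between these libraries, which may be technical.

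DNA methylation in mammals sits mostly on the cytosines of CpG dinucleotides. Dnmt3a and Dnmt3b place it on unmethylated DNA, and Dnmt3l, which has no catalytic activity of its own, binds both and stimulates them. After replication, Uhrf1 recognises the hemimethylated CpG and recruits Dnmt1, which copies the mark to the new strand. Tet enzymes oxidise the methyl group, and Tdg excises the more oxidised forms so that base excision repair can restore an unmodified cytosine. In mESCs methylation contributes to silencing of endogenous retroviruses, of germline genes and of the marked alleles of imprinted genes. Only RNA was measured here, and neither DNA methylation nor protein was assayed.

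Total counts ranged from 36667685 to 61908422 per library, and 21850 to 22591 genes had at least 1 count. *Spen* itself (ENSMUSG00000040761.9, chromosome 4, 141023805 to 141094512, minus strand, mm9) gave normalized read counts of 3716 and 3047 in WT and 7797 and 6242 under the KO label. The RNA of the targeted gene was therefore more abundant under that label (log2 fold change 1.05 ± 0.21 (SE), adjusted p = 7.7e-06), and gene-level counts do not show which exons the reads came from. The value therefore does not check the deletion, and the group is called KO-labelled, after its label. All 8 mESC markers examined, *Pou5f1* and *Nanog* among them, were present, and their summed normalized counts spanned 221982 to 227225 in WT and 229761 to 240985 in KO-labelled libraries. Of these markers 2 passed as higher, *Dppa5a* (0.28) and *Zfp42* (0.23), and none as lower. Some markers of other lineages differed between the groups. The summed counts of 6 primitive endoderm markers were 530 and 566 in WT against 285 and 246, and 2 of them passed the test as lower, while *Gata6* stayed under 27 normalized counts throughout. For 6 trophoblast markers the sums were 4304 and 4460 against 3628 and 3824, with 3 lower. *Elf5* was near the floor, with 4 raw counts in each WT library and 0 in each KO-labelled library, and received no adjusted p-value. *Tcfap2c* (*Tfap2c*), which did not pass, made up most of these sums, and the other 5 summed to 406 and 393 in WT against 94 and 73.6. Sums of 6 fibroblast and feeder markers were 170 and 192 against 421 and 485, where 1 marker, *Thy1*, was higher and *Postn* was at 0 in 3 libraries. The other 5 summed to 51.7 and 54.4 in WT and 65.3 and 71.2 in KO-labelled cells, and none of them passed. The part of these markers in the results below was not tested, and in bulk samples fewer cells of a type and less RNA per cell cannot be told apart.

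All 10 genes were counted in every library and received an adjusted p-value. At an adjusted p under 0.05 by DESeq2, 4 were higher in the KO-labelled cells (*Dnmt1*, *Uhrf1*, *Tet2* and *Zfp57*), 3 were lower (*Dnmt3b*, *Dnmt3l* and *Tdg*) and 3 did not pass (*Dnmt3a*, *Tet1* and *Tet3*). Of all 17710 genes tested, 16.4% were higher and 15.8% lower by the same rule, and 32.3% passed in either direction. Since 9 of the 10 genes had a mean of at least 1000 normalized counts, the nearer background is the 6988 genes above that level, of which 49% passed. With the study's stricter rule, at least 2-fold and an adjusted p under 0.001, 1 of the 10 was called, *Dnmt3l*, which was lower. By that rule 1.36% of all genes tested were higher, 3.15% lower and 4.51% called in all, and of the genes above 1000 normalized counts 2.42% were called. The median log2 fold change of the 10 was 0.08, and that of all genes tested was 0.00489. Normalized counts of the WT and KO-labelled libraries did not overlap for 9 of the 10, of which 5 were higher and 4 lower in KO-labelled cells. This was also true of 70.2% of all genes tested, 35.4% higher and 34.8% lower.

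**Figure D1:**
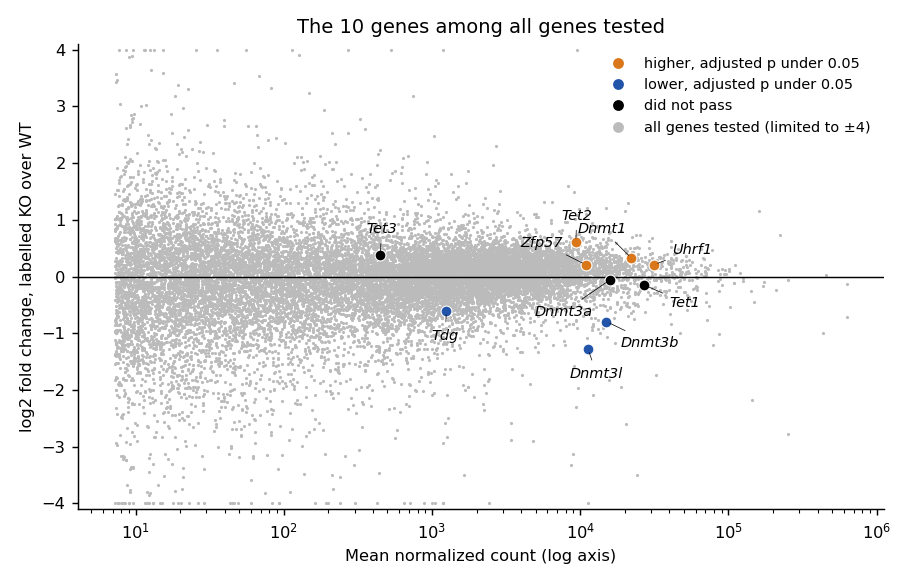
Log2 fold change of every gene tested (vertical axis, KO-labelled over WT, limited to ±4) against its mean normalized count over the 4 libraries (horizontal log axis). Grey points are all genes tested, orange and blue points are the genes of the set that were higher (4) or lower (3) at an adjusted p under 0.05, and black points are the 3 that did not pass, with *Dnmt3l* lowest at -1.28.

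The *de novo* genes share a catalytic domain, and the stretch that separates them is short enough to show. The sequences below are the coding bases around the proline-cysteine pair that carries out methyl transfer in *Dnmt3a* and *Dnmt3b*, with the codons of that pair in capitals, and the stretch of *Dnmt3l* that aligned from the same starting residue. They were read from mm9 at chr12:3902399-3902452 (*Dnmt3a* exon 18), chr2:153502925-153502978 (*Dnmt3b* exon 19) and chr10:77519608-77519661 (*Dnmt3l* exon 11), all on the plus strand.
Dnmt3a: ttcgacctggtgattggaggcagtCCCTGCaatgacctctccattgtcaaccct
Dnmt3b: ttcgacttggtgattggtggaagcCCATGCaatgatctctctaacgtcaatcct
Dnmt3l: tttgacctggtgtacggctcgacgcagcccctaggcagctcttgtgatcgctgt
The *Dnmt3l* stretch held no proline-cysteine pair, and the alignment had a gap at its place. Exonic bases matching elsewhere in the genome (at least 75 bases at 97% identity) made up 1.2% of *Dnmt3a*, 13.9% of *Dnmt3b* and 0% of *Dnmt3l*.

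*Dnmt3l* (ENSMUSG00000000730.7, chromosome 10, 77504692 to 77526367, plus strand) had the largest fall of the 10 genes. Its normalized read counts were 16448 and 15599 in WT and 6470 and 6706 in KO-labelled cells. The replicates of each group lay close together, and every KO-labelled library was far below both WT libraries. The group means were 16023 ± 601 and 6588 ± 166 (SD, n = 2 each), a log2 fold change of -1.28 ± 0.07 (SE; 95% interval -1.42 to -1.15, adjusted p = 1.59e-72). Among all genes tested, 92.5% had a smaller absolute log2 fold change. The fall passed at an adjusted p under 0.05 in each of the 10 alternative fits, with log2 fold changes from -1.32 to -0.94.

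*Dnmt3b* (ENSMUSG00000027478.9, chromosome 2, 153475186 to 153513466, plus strand), the *de novo* enzyme typical of early embryonic cells, fell as well. Its normalized read counts were 18744 and 19393 in WT and 10685 and 11316 in KO-labelled libraries, so that the groups were again well apart. Means were 19068 ± 459 and 11000.1 ± 446 (SD, n = 2 each), a fold of 0.577 and a log2 fold change of -0.79 ± 0.07 (SE; adjusted p = 3.18e-29). The alternatives gave -0.90 to -0.75. *Gm14490*, downstream of *Dnmt3b* and annotated in this gene set as a pseudogene, is the locus later named *Dnmt3c*. It shares sequence with *Dnmt3b* but held 13 and 19 raw counts in WT and 12 and 23 in KO-labelled libraries.

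*Dnmt3a* (ENSMUSG00000020661.9, chromosome 12, 3806007 to 3914443, plus strand), the other active *de novo* enzyme, did not pass the test. Normalized read counts of 16732 and 15748 in WT overlapped with 15259 and 15965 in KO-labelled libraries. The log2 fold change of -0.06 ± 0.07 (SE; adjusted p = 0.599) had a 95% interval of -0.19 to 0.08. It was the only gene of the 10 whose groups overlapped. *Gm10485*, on the opposite strand over 0.8% of its exonic bases, had at most 2 raw counts in any library.

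Levels can be compared between genes only per length, and are given as counts per 1000000 (CPM) per kilobase of exon. The length is that of all annotated exons of a gene joined, 16642 bases for *Dnmt3a*, 5106 for *Dnmt3b* and 2988 for *Dnmt3l*. Which isoforms were used was not measured, so the order and ratios below hold for these lengths, and the counts of *Dnmt3a* and *Dnmt3l* in WT were close. *Dnmt3l* stood at 113 and 109 in WT and at 45.5 and 46.3 in KO-labelled libraries. *Dnmt3b* stood at 75.5 and 79.6 in WT and at 43.9 and 45.7. *Dnmt3a* was lowest, at 20.7 and 19.8 in WT and 19.2 and 19.8 in KO-labelled libraries. The order *Dnmt3l*, *Dnmt3b*, *Dnmt3a* of the WT cells thus became a near tie of the first pair above *Dnmt3a*, since the KO-labelled values of *Dnmt3l* and *Dnmt3b* overlapped. The summed level of the trio was 209 in each WT library against 109 and 112 in KO-labelled cells. *Dnmt3l* was 5.48 and 5.52 times as high as *Dnmt3a* in WT, and 2.36 and 2.34 times as high in KO-labelled libraries. The share of *Dnmt3a* in that sum was 9.88% and 9.5% in WT against 17.7% in each KO-labelled library, while its own level moved little. The share of *Dnmt3b* was 36.1% and 38.1% in WT and 40.4% and 40.9% in KO-labelled libraries. These ratios are descriptions with no test of their own.

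**Figure D2:**
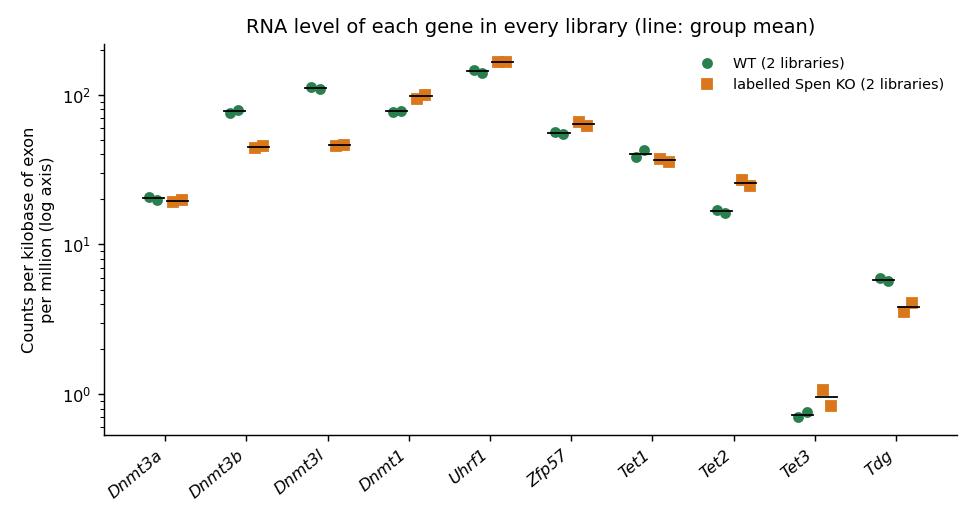
Level of each of the 10 genes in every library (vertical log axis, CPM per kilobase of exon), with WT as green circles, KO-labelled as orange squares and group means as lines. *Dnmt3l* (111 to 45.9 on average) and *Dnmt3b* (77.5 to 44.8) show the widest gaps, *Dnmt3a* overlaps, and *Tet3* lies under 1.1 in all libraries.

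The highest level of the set belonged to a maintenance gene in both groups. *Uhrf1* averaged 143 ± 5.88 in WT and 166 ± 0.528 in KO-labelled libraries (SD, n = 2 each), above each of the other 9 genes. *Dnmt1* averaged 77.4 ± 0.583 in WT, where it overlapped with *Dnmt3b*, and 97.4 ± 4.36 in KO-labelled libraries, where it ranked second and overlapped with no other gene of the set. *Zfp57* averaged 55.3 ± 0.888 and 64.2 ± 2.81, *Tet1* 40.3 ± 3.13 and 36.4 ± 1.28, and *Tet2* 16.7 ± 0.603 and 25.6 ± 1.7. *Tdg* followed at 5.83 ± 0.227 and 3.82 ± 0.371, and *Tet3* at 0.73 ± 0.038 and 0.953 ± 0.163. Matches elsewhere in the genome covered 57.3% of the exonic bases of *Uhrf1* and 55.7% of those of *Tdg*, so their levels are uncertain. Apart from *Dnmt3b* with *Dnmt1* in WT and *Dnmt3l* with *Dnmt3b* in KO-labelled cells, neighbours in the order did not overlap. Among detected protein-coding genes in WT, *Uhrf1* lay at percentile 97.9, *Dnmt3a* at 84 and *Tet3* at 38.6.

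*Dnmt1* (ENSMUSG00000004099.8, chromosome 9, 20711650 to 20757317, minus strand) rose. Normalized read counts were 19708 and 19559 in WT and 23642 and 25613 in KO-labelled libraries, both above both WT values. The log2 fold change was 0.33 ± 0.07 (SE; adjusted p = 1.55e-05), a 1.25-fold difference that passed in all 10 alternatives with values from 0.19 to 0.39. It was no unusual size, since 51.6% of all genes tested had a smaller absolute log2 fold change.

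*Uhrf1* (ENSMUSG00000001228.8, chromosome 17, 56442744 to 56462909, plus strand) gave 30479 and 28237 normalized counts in WT and 33597 and 34318 in KO-labelled libraries. The groups did not overlap, and the log2 fold change was 0.21 ± 0.07 (SE; adjusted p = 0.00745). The call was lost without WT replicate 2 (0.16, adjusted p = 0.191), without KO-labelled replicate 1 (adjusted p = 0.0594), without KO-labelled replicate 2 (adjusted p = 0.14) and with the replicate block (adjusted p = 0.0948). Matches elsewhere covered 57.3% of its exonic bases, where *Gm5648*, a pseudogene on the X chromosome, held 16 and 50 raw counts in WT and 48 and 52 in KO-labelled libraries. How such reads were assigned is not given in the sources used here, so the value is uncertain.

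*Zfp57* (ENSMUSG00000036036.9, chromosome 17, 37138108 to 37147580, plus strand) binds methylated alleles of imprinted regions and recruits silencing factors there. It gave 10299 and 9886 normalized counts in WT and 11936 and 11408 in KO-labelled libraries. Again the groups were apart by little, with a log2 fold change of 0.21 ± 0.07 (SE; adjusted p = 0.0106). The call was lost when any 1 library was left out, with adjusted p-values of 0.0524 without WT replicate 1, 0.175 without WT replicate 2, 0.18 without KO-labelled replicate 1 and 0.0668 without KO-labelled replicate 2. It was lost with the replicate block as well (adjusted p = 0.107).

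*Tet2* (ENSMUSG00000040943.7, chromosome 3, 133126643 to 133207354, minus strand) rose most among the 10 genes. Its normalized read counts were 7643 and 7131 in WT and 11732 and 10860 in KO-labelled libraries. Each KO-labelled library was well above both WT libraries, with means of 7387 ± 363 and 11296 ± 617 (SD, n = 2 each). The log2 fold change of 0.61 ± 0.08 (SE; adjusted p = 2.38e-14) was a 1.53-fold difference and stayed between 0.52 and 0.67 in the alternatives, all of which it passed.

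*Tet1* (ENSMUSG00000047146.8, chromosome 10, 62267318 to 62361866, minus strand), the most abundant of the oxidases, gave 27260 and 29879 normalized counts in WT and 26140 and 25291 in KO-labelled libraries. The groups did not overlap but the test was not passed (log2 fold change -0.15 ± 0.07 (SE), adjusted p = 0.0821). With size factors from the upper quartile the adjusted p was 0.0382 at -0.18. *Tet3* (ENSMUSG00000034832.8, chromosome 6, 83312367 to 83391672, minus strand), the oxidase of the oocyte and zygote, gave 379 and 401 in WT and 564 and 450 in KO-labelled libraries. The KO-labelled pair differed by nearly as much as the groups did, and the log2 fold change of 0.38 ± 0.18 (SE) had an adjusted p of 0.101 by DESeq2 and 0.0453 by edgeR.

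Per length, *Tet2* stood at 0.448 and 0.381 of *Tet1* in WT against 0.717 and 0.686 in KO-labelled cells. *Tet1* made up 68.2% and 71.5% of the summed level of the oxidases in WT and 57.3% and 58.5% in KO-labelled libraries. *Tet2* made up 30.6% and 27.3% in WT and 41.1% and 40.1% in KO-labelled libraries. The sum itself was 55.9 and 59.5 in WT and 65.1 and 60.7 in KO-labelled libraries, a narrow gap beside that of the *Dnmt3* trio.

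*Tdg* (ENSMUSG00000034674.11, chromosome 10, 82092573 to 82113544, plus strand), the glycosylase downstream of the oxidases, fell. Its normalized read counts were 1564 and 1454 in WT and 912 and 1063 in KO-labelled libraries. The groups were separate, with means of 1509 ± 78.2 and 988 ± 107 (SD, n = 2 each) and a log2 fold change of -0.61 ± 0.12 (SE; adjusted p = 5.48e-06). Matches elsewhere covered 55.7% of its exonic bases. *Gm9855*, a *Tdg* pseudogene on the same chromosome (41773919 to 41775160), gave 1432 and 1281 normalized counts in WT and 892 and 873 in KO-labelled libraries. Its log2 fold change of -0.62 ± 0.12 (SE; adjusted p = 2.9e-06) lay beside that of *Tdg*, and reads of the pair cannot be told apart with the counts at hand. *Glt8d2*, on the opposite strand over 6.8% of the exonic bases of *Tdg*, had 17 to 34 raw counts per library.

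Whole chromosomes differed between the cell lines, and 6 of the 10 genes lie on chromosomes with medians below 0. Over genes with a mean of at least 50 normalized counts, the median log2 fold change was -0.35 on chromosome 10 (613 genes), which holds *Dnmt3l*, *Tet1* and *Tdg*. It was -0.32 on chromosome 12 (466 genes), which holds *Dnmt3a*, and -0.14 on chromosome 17 (648 genes), which holds *Uhrf1* and *Zfp57*. On the chromosomes of *Dnmt3b*, *Tet2*, *Tet3* and *Dnmt1* the medians were 0.11, 0.09, 0.06 and 0.13. Why chromosomes differed was not tested.

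With the chromosome medians removed before the fit, some genes of the set moved to another side of the threshold and others did not. *Dnmt3b* became lower still (log2 fold change -0.90, adjusted p = 1.39e-37), and *Dnmt3l* remained lower but under 2-fold (-0.94, adjusted p = 2.2e-38). *Tdg* no longer passed (-0.26, adjusted p = 0.0941). *Dnmt3a* turned from a value near 0 to 0.26 with an adjusted p of 0.00102, and *Tet1* turned from -0.15 to 0.19 (adjusted p = 0.0241). *Tet2* stayed higher at 0.52 (adjusted p = 1.95e-10). *Dnmt1* passed at 0.19 (adjusted p = 0.0208), *Uhrf1* at 0.35 (adjusted p = 3.53e-06) and *Zfp57* at 0.35 (adjusted p = 9.17e-06). Relative to their chromosomes, 6 of the 10 genes were therefore higher and 2 were lower, against 4 and 3 without that step. In the same fit 12.4% of all genes tested were higher and 14.9% lower. The shares among genes with a mean of at least 1000 normalized counts, the nearer background, were not computed for this fit. Without that step they were 29.8% higher and 19.2% lower.

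**Figure D3:**
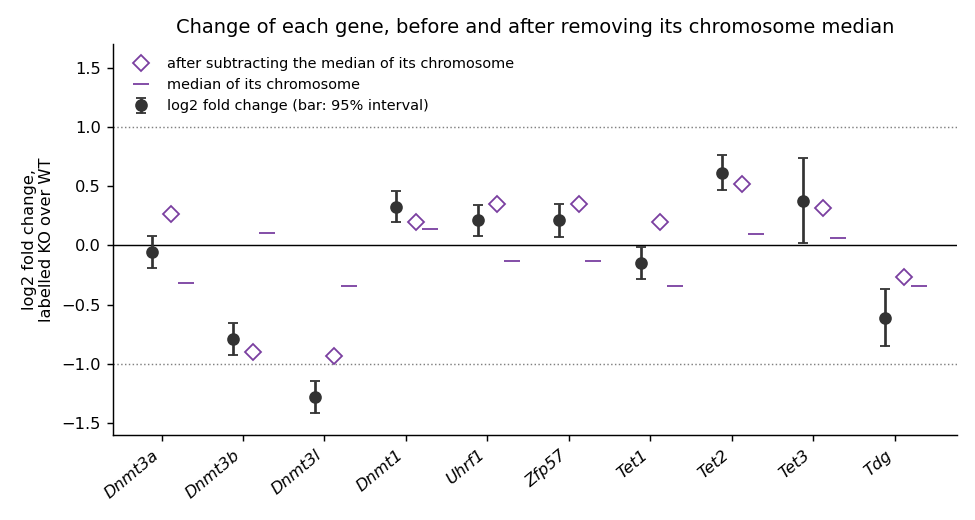
Log2 fold change of each of the 10 genes (vertical axis, KO-labelled over WT) as filled circles with 95% intervals, the median of its chromosome as a short line, and the difference of these as an open diamond. The dotted lines mark a 2-fold difference. *Dnmt3l* moves from -1.28 to -0.94 and *Dnmt3b* from -0.79 to -0.90, while *Dnmt3a* and *Tet1* move across 0.

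Genes around *Dnmt3l* were mostly lower, as were many of chromosome 10. Of 22 other genes starting within 1 Mb and with a mean of at least 50 normalized counts, 21 had log2 fold changes below 0, 14 of them passing as lower, and the median was -0.41. On chromosome 10 as a whole 320 of 613 such genes (52.2%) passed as lower. Neighbours of *Dnmt3a* had a median of -0.42 (15 genes) and those of *Tdg* -0.35 (13 genes). Around *Tet1*, also on chromosome 10, the median was 0.01 (21 genes). The chromosome median of -0.35 subtracted for *Tet1* above was therefore not that of its surroundings. *Aire*, an autoimmune regulator gene that starts 1.66 kb from the annotated start of the *Dnmt3l* gene on the opposite strand and overlaps it by 67 exonic bases (2.2%), gave 969 and 928 normalized counts in WT and 367 and 398 in KO-labelled libraries. Its log2 fold change of -1.31 ± 0.15 (SE; adjusted p = 8.64e-18) was the only one among the neighbours at or below that of *Dnmt3l*. *Syde1*, 550 kb downstream, had the next lowest value after *Dnmt3l*, at -1.19 ± 0.19 (SE; adjusted p = 4.98e-09). *Pfkl*, a phosphofructokinase gene 31.9 kb upstream, was at -0.77 (adjusted p = 1.05e-25), and *Icosl*, a costimulatory ligand gene 27.4 kb downstream, at -0.81 (adjusted p = 5.98e-05). These neighbours were named after their values were seen. *Dnmt3b* lay in a region of the opposite sign, where 28 neighbours had a median of 0.22 and 1 of them was at or below *Dnmt3b*. Around *Tet2* there were 6 neighbours with a median of 0.07, and none was at or above *Tet2*.

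**Figure D4:**
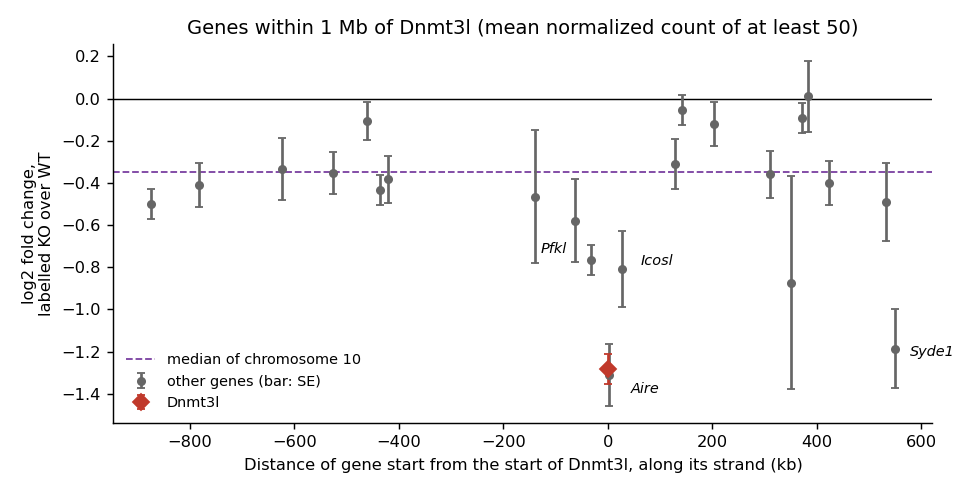
Log2 fold change with SE (vertical axis, KO-labelled over WT) of genes within 1 Mb of *Dnmt3l*, against the distance of their start from that of *Dnmt3l* in kb. *Aire* (-1.31) and *Dnmt3l* (red diamond, -1.28) have the lowest values, with *Syde1* next at -1.19. Most of the other genes are near the chromosome median of -0.35 (dashed line).

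The genes with the largest falls and the largest rise begin in unlike sequence, shown here because the cytosine of a CpG is the base that methyltransferases modify. The 200 bases before annotated starts are given in the direction of transcription with each CG in capitals. Of 22367 promoters of protein-coding genes of the same length, 15% held as many CG as *Dnmt3b* (20), 65.6% as many as *Dnmt3l*-001 or *Dnmt3l*-003 (4 each), 72.1% as many as *Dnmt3l*-004 (3) and 0.2% as many as *Tet2*-202 (40). CG reads the same on both strands. The *Dnmt3l* starts shown are of coding transcripts. The annotated start of the gene, at 77504692, is of a transcript annotated as non-coding and is not shown, nor is that of *Dnmt3l*-002, close to *Dnmt3l*-003. Which start was used was not measured, since gene-level counts do not separate isoforms, and methylation of these bases was not assayed. Positions on mm9 are chr2:153474989-153475188 (plus strand) for *Dnmt3b*, chr10:77504832-77505031, chr10:77512387-77512586 and chr10:77517880-77518079 (plus strand) for the *Dnmt3l* starts, and chr3:133207355-133207554 (minus strand) for *Tet2*.
Dnmt3b-001: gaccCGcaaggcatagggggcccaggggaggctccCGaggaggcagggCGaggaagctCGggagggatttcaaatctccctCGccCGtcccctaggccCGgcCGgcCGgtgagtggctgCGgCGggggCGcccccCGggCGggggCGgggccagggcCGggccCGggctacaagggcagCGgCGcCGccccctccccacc
Dnmt3l-001: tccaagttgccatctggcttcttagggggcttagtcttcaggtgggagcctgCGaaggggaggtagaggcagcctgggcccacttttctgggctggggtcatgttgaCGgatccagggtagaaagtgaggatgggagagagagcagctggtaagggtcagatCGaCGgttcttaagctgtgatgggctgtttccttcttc
Dnmt3l-003: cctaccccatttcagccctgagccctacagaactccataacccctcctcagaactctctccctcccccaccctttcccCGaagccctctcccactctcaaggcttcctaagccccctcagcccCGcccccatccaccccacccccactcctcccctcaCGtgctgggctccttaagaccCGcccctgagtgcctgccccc
Dnmt3l-004: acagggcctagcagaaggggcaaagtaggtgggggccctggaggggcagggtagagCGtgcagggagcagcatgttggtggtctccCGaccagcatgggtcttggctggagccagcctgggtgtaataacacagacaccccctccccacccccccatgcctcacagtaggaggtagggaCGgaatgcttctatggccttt
Tet2-202: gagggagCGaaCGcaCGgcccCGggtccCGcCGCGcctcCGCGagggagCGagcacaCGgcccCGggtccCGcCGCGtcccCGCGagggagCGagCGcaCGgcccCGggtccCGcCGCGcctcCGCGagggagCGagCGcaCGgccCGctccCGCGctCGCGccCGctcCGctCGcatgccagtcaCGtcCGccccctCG

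Other genes of DNA methylation were examined as 9 lists with 92 genes in all, which excluded the 10 genes above. At an adjusted p under 0.05, 30 were higher (32.6%) and 12 lower (13%), beside 16.4% and 15.8% of all genes tested. Among the 63 list genes with a mean of at least 1000 normalized counts, 25 were higher and 10 lower, beside 29.8% and 19.2% of all genes at that level. The median log2 fold change over the 92 was 0.05. Most of these differences were small, and 3 of the 92 genes reached the 2-fold rule, all of them higher. Of all genes tested, 1.36% were called higher and 3.15% lower by that rule. Of the 33 list genes that the naming rule picked, 13 kept their direction and an adjusted p under 0.05 in all 10 alternatives, and 20 did not in at least 1. Unless said otherwise, the genes with values below are among the 13.

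Maintenance partners had 4 of 8 genes higher and 1 lower. *Hells*, a chromatin remodeller needed for normal methylation, had the largest fitted change of the list, with 22891 and 22971 normalized counts in WT and 38368 and 32716 in KO-labelled libraries (log2 fold change 0.63 ± 0.08 (SE), adjusted p = 6.42e-14). With chromosome medians removed it was at 0.25 (adjusted p = 0.00909), below *Paf1* at 0.31, since the median of chromosome 19 was 0.38. *Paf1*, a subunit of a transcription elongation complex, was at 0.41 without that step (adjusted p = 7.32e-06). *Pcna*, the replication clamp, was at 0.29 (adjusted p = 0.000107), or 0.18 with chromosome medians removed, and 49.6% of its exonic bases matched elsewhere. *Dmap1*, which binds Dnmt1, was at -0.27 and lost its call in every leave-one-out fit. The call was also lost with chromosome medians removed (-0.06, adjusted p = 0.7) and with the replicate block (adjusted p = 0.119). The other 2 genes of the methyltransferase family, *Gm14490* (-0.41) among them, did not pass.

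Methyl-CpG readers had 1 of 10 higher (*Mbd4*, 0.36) and 2 lower (*Zbtb33*, -0.37, and *Mbd3*, -0.33), and none of these kept the call throughout. *Mbd3* lost it only where chromosome medians were removed (0.01). TET and demethylation partners had 4 of 14 higher and 3 lower, within which members of the *Gadd45* stress-response family differed in sign. *Gadd45b* gave 627 and 510 normalized counts in WT and 307 and 366 in KO-labelled libraries (-0.75 ± 0.18 (SE), adjusted p = 0.000301). *Gadd45g* gave 122 and 76.2 in WT and 152 and 237 in KO-labelled libraries (0.98 ± 0.33 (SE), adjusted p = 0.0131). The call of *Gadd45b* was lost without WT replicate 1, without KO-labelled replicate 1 and with chromosome medians removed (-0.41, adjusted p = 0.0891). That of *Gadd45g* was lost without WT replicate 2, without KO-labelled replicate 2 or with the replicate block (adjusted p = 0.0631). Leaving out each library in turn gave log2 fold changes of -0.89 to -0.59 for *Gadd45b* and 0.63 to 1.36 for *Gadd45g*.

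Base excision repair, which completes active demethylation, had 3 of 12 genes higher and none lower. *Lig1*, the ligase of DNA replication and long-patch repair, gave 15118 and 14685 normalized counts in WT and 19266 and 19557 in KO-labelled libraries (0.38 ± 0.06 (SE), adjusted p = 5.71e-08). The calls of *Ogg1* (0.42) and *Neil2* (0.62), both glycosylases of oxidised bases, were lost in several alternatives. Synthesis of the methyl donor had 4 of 11 higher and 1 lower, with *Mat2b*, the regulatory subunit of methionine adenosyltransferase, at 0.40 (adjusted p = 1.68e-06), or 0.24 with chromosome medians removed.

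Imprint protection partners had 7 of 10 genes higher and 1 lower, beside 29.8% and 19.2% of all genes with a mean of at least 1000 normalized counts. Of the higher genes, *Cbx3* (0.30) and *Arid4a* (0.30) lost their calls in some alternatives. *Setdb1*, the histone H3 lysine 9 methyltransferase brought to imprints and retroviruses through *Trim28*, gave 9833 and 9322 normalized counts in WT and 13503 and 14191 in KO-labelled libraries (0.53 ± 0.07 (SE), adjusted p = 1.23e-12). *Dppa3*, which shields the maternal genome from demethylation in the zygote, was the gene that fell, from 3627 and 3619 to 2381 and 2565 (-0.55 ± 0.09 (SE), adjusted p = 4.72e-09). Copies elsewhere matched 87.6% of its exonic bases and 14.8% of those of *Setdb1*. Writers and erasers of the histone marks that methyltransferases read had 2 of 9 higher and 2 lower. *Setd2*, which places H3 lysine 36 trimethylation, was at 0.34 (adjusted p = 0.000118), and *Ehmt2*, an H3 lysine 9 methyltransferase, was at -0.36 (adjusted p = 3.99e-05). With chromosome medians removed they were at 0.21 and -0.23.

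Germline genes that promoter methylation is known to silence had 5 of 16 genes higher and 2 lower, and held the 3 genes of all lists that passed the 2-fold rule. *Hormad1*, a meiotic chromosome axis gene, gave 1286 and 1221 normalized counts in WT and 3515 and 3052 in KO-labelled libraries (1.39 ± 0.10 (SE), adjusted p = 2.27e-38), with 40.5% of its exonic bases matched elsewhere. *Slc25a31*, a nucleotide carrier of male germ cells, gave 127 and 152 in WT and 343 and 309 in KO-labelled libraries (1.22 ± 0.24 (SE), adjusted p = 3.19e-06). *Sycp1*, a synaptonemal complex gene, gave 529 and 513 in WT and 1221 and 912 in KO-labelled libraries (1.03 ± 0.16 (SE), adjusted p = 1.87e-09). The 2-fold rule was not met by *Sycp1* with chromosome medians removed (0.94) or without KO-labelled replicate 1 (0.82). *Slc25a31* missed its adjusted p of 0.001 without WT replicate 1 (0.00496), KO-labelled replicate 1 (0.0159) or KO-labelled replicate 2 (0.00354), and *Hormad1* met the rule in all 10 alternatives. *Tex19.1*, a germ cell and placental gene, fell from 8705 and 8262 to 5513 and 5586 (-0.61 ± 0.07 (SE), adjusted p = 1.84e-15). The list median was -0.03, so the genes of this list did not move one way.

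**Figure D5:**
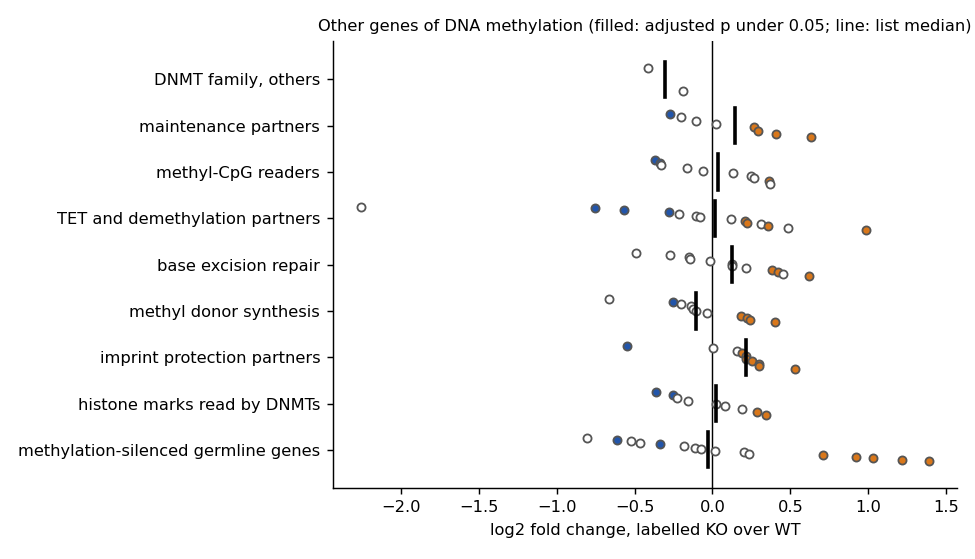
Log2 fold change (horizontal axis, KO-labelled over WT) of each gene in the 9 lists (rows), filled where the adjusted p was under 0.05 (orange higher, blue lower) and open otherwise, with a thick line at each list's median. Medians lie between -0.30 and 0.22, and the germline list holds the 3 genes beyond 1 that passed.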

How the data were processed

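Groups and replicate numbers came from the sample labels, and table columns were matched to samples by name (0 columns without a sample). Each deposited value is a raw count of reads, without normalization. Per the study's methods and processing notes, libraries were stranded and depleted of ribosomal RNA without poly-A selection, and the authors mapped paired 75-base reads to mm9 with STAR and counted them over GENCODE genes with featureCounts. Versions, strand setting, treatment of multiply mapped reads and whether both mates of a pair were counted are not given in the sources used here. If both mates were counted, the counts exceed the number of sequenced fragments.

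All 37310 genes were fitted using DESeq2 1.42.0 under R 4.3.3 (group as the only term, Wald test, default size factors, independent filtering, Benjamini-Hochberg adjustment). Passed means an adjusted p under 0.05 and called means at least 2-fold and an adjusted p under 0.001. Normalized counts are divided by size factors, and fold changes are KO-labelled over WT. Alternatives were TMM and upper-quartile scaling, removed chromosome medians, a filter of 10 counts in 2 libraries, edgeR 4.0.16 (quasi-likelihood), a replicate block, each library left out, and other thresholds. Without molecular identifiers, reads cannot be counted as independent molecules. Replicates differed beyond sampling noise (chi-square per degree of freedom 36.9 in WT and 14.3 in KO-labelled cells).

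The GENCODE vM1 annotation of mm9 gave positions (1-based), exonic lengths and sequences, and matched every gene. Copies are exonic bases with a match elsewhere of at least 75 bases and 97% identity. The members and lists were chosen with earlier results of these data known. Genes named were the 10 members, *Spen*, genes overlapping or copying a member, and in each list up to 3 per direction with the largest change among those that passed with a mean of at least 50. Single markers and neighbours of members lie outside this rule and were named after their values were seen. *Nsd2* and *Tfap2c* were found under older symbols, the formative marker list, in which *Dnmt3b* alone passed (lower), contains a member, and of 6 2-cell-like markers 3 were matched and none passed.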

Additional observations from a re-analysis of the deposited data

How the results depend on the processing

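*Dnmt1*, *Dnmt3b*, *Dnmt3l* and *Tet2* kept their direction and an adjusted p under 0.05 in all 10 alternative fits, and *Spen* did so too. Removing chromosome medians reversed *Dnmt3a* (0.26), *Tet1* (0.19), *Mbd3* (0.011) and *Shmt2* (0.094), since that step subtracts each chromosome's own median. The replicate numbers did not pair the libraries (correlation of their deviations -0.0177), and with the replicate block 2 of the 10 genes were higher and 3 lower, 17 and 7 of the list genes, beside 11.8% and 12.5% of all genes at that threshold, and 192 and 457 of all genes by the 2-fold rule. The cause of the lost calls was not tested. The 2-fold rule left 0 of the 10 genes higher and 1 lower, and without a minimum fold, at an adjusted p under 0.05, 2909 genes were higher and 2805 lower in place of 241 and 558. With edgeR 19 list genes were lower in place of 12, while 21.6% of all genes tested were lower in place of 15.8%. Leaving out each library in turn gave 2 to 3 of the 10 genes higher and 3 to 3 lower, 14 to 21 and 5 to 8 of the list genes (all genes 10.8% to 12.1% and 10.5% to 12%), 137 to 185 and 332 to 404 of all genes by the 2-fold rule (fewest higher without KO-labelled replicate 1, fewest lower without WT replicate 2), and 0.89 to 1.21 for *Spen*, where the lone library of a group was assumed to vary like the other group. The median log2 fold change of all genes was 0.03 or less under every scaling. With scaling over protein-coding genes each level was higher, that of *Dnmt1* in WT from 77.4 to 84.3. Of the 10 genes *Tet3* had the fewest counts and the widest interval.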
